A study of Mus musculus with 12 samples.

Results

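The comparison described here sets BV2 cells in which Spi1 was lowered by a short hairpin RNA against BV2 cells given a scrambled hairpin. It takes 6 of the 12 libraries in the series, 3 Spi1 knockdown and 3 scrambled control libraries, and its members are the genes whose mean over those 6 reached 1 FPKM. FPKM divides the reads of a gene by its length in kilobases and by the megareads of its library. Of 24062 entries in the table, 17037 with a symbol of their own were above 0 in at least 1 of the 6 libraries, and 11214 passed the level filter and were tested. Each response is also set beside 3 empty frame controls, which are BV2 cells given the overexpression construct without Spi1 in the other experiment. The 3 libraries of that experiment in which mouse Spi1 was raised from a cDNA were not used here. BV2 is an immortalised microglial line from mouse. All groups were grown in medium with 5% heat-inactivated serum, altered transiently and sorted by flow cytometry, and the labels record no other treatment. The cells are a single line, and the sources used here do not give the hairpin sequences, the sorting gate or the time after delivery. The labels do not tell whether the libraries of a group are separate cultures, so the p-values reflect the spread among these libraries, which could be technical.

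PU.1, the ETS-family factor made from Spi1, opens chromatin at enhancers and promoters of macrophages and B cells. In microglia it is needed for the lineage itself and keeps surface receptors, phagocytic machinery and lysosomal genes active. Its levels matter, since precursors with much or little PU.1 take different fates. The genes described here are mainly others than its best known targets.

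Spi1 itself stood at 159.2, 169.2 and 167.7 FPKM in scrambled controls 1 to 3, at 50.9, 42.4 and 52.3 FPKM in knockdown 1 to 3 and at 158.1, 117.3 and 130.97 FPKM in empty controls 1 to 3. Every knockdown library thus lay below every control. The gene (chr2:91082390-91115756, plus strand, mm10) changed by -1.75 ± 0.08 on the log2 scale (standard error, 3 pairs, limma adjusted p = 0.00324). Every empty control also lay below every scrambled control, with a mean difference of 0.30 on the log2 scale. Of 14 microglia and macrophage markers all were found, and 2, Cx3cr1 and C1qa, were under 1 FPKM in all 9 libraries. These 2 are defining genes of resident microglia, and Cx3cr1 was at 0.124 to 0.557 FPKM in scrambled controls and 0.842 to 0.903 FPKM in knockdown. Of the 14, 9 were lower in every knockdown library than in every scrambled control, 2 (Cx3cr1 and Emr1) were higher and 3 (C1qa, Cd68 and Fcer1g) overlapped. The summed level of the 14 was 5354 to 6198 FPKM in scrambled controls, 3587 to 4482 FPKM in knockdown and 4855 to 6300 FPKM in empty controls. Lyz2 took a large part of it, at 2136 to 2841 FPKM in scrambled controls and 934.6 to 1548 FPKM in knockdown, while Emr1 was at 57.2 to 63.9 and 92.7 to 113.6 FPKM. Of the markers of other brain and blood cells, Rbfox3, Snap25, Aqp4, Olig1, Olig2, Pdgfra, Cd3e and Ms4a1 were among those at 0 in all 9 libraries. Others were above 0, such as Syn1 of neurons at 3.78 to 5.79 FPKM in knockdown and 4.06 to 5.25 in scrambled controls. Pax5 of B cells was at 0.576 to 1.21 and 0.611 to 1.12 FPKM. S100a8 of neutrophils was at 1.63 to 2.40 and 2.51 to 4.85 FPKM. Sums of the neuron, B cell, neutrophil, erythroid and fibroblast lists overlapped between knockdown and scrambled controls. The endothelial list summed to 115.0 to 120.1 FPKM in knockdown against 90.7 to 91.3 FPKM in scrambled controls, nearly all of it from Kdr and Flt1, while Emcn was at 0. The oligodendrocyte list summed to 11.5 to 12.4 against 7.35 to 9.40 FPKM, nearly all of it from Cnp. The astrocyte list was lower in knockdown, at 38.4 to 48.6 against 58.6 to 66.2 FPKM, nearly all of it from Aldoc. So was the T cell list, at 2.64 to 3.10 against 3.53 to 4.20 FPKM, nearly all of it from Lck. The part of these markers in the results below was not tested. Depth was 24.4 to 33.1 megareads on genes in the 6 libraries and 22.3 to 27.8 in the empty controls.

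In knockdown, 3435 of the 11214 genes were higher and 1646 were lower at an adjusted p under 0.05 (limma on log2(FPKM + 1), same-numbered libraries as pairs, Benjamini-Hochberg over all genes tested). The background against which any group of genes is read is therefore 45.3% called, 30.6% higher and 14.7% lower. Most of these changes were small: 320 rises and 223 falls went past 1.5-fold, and 42 and 45 past 2-fold. The falls gathered among abundant genes, with 10.5% of genes at 1 to 5 FPKM lower in knockdown, 12.7% at 5 to 20, 18.3% at 20 to 100 and 24.7% at 100 FPKM or more. Rises showed no such step, at 27.2%, 32.0%, 31.2% and 30.9% in the same order. Without the replicate number in the model, 1952 genes were higher and 993 lower (26.3% called, 17.4% and 8.86%), nearly all of them among the paired calls (1948 and 992, or 26.2%, 17.4% and 8.85% of genes called in both fits). The median of all genes was 0.07 on the log2 scale, and scaling by the median of ratios, which brings it to 0, left 2256 higher and 2445 lower. That scaling moved the higher share of calls from 67.6% to 48.0%, and no gene changed sides. Leaving out pair 2 left 796 higher and 472 lower, leaving out pair 1 left 2800 and 1551, and leaving out pair 3 left 2263 and 1039.

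The empty controls separated responses into kinds. Among the genes lower in knockdown, 542 (32.9%) had all 3 knockdown libraries below all 6 controls, with scrambled controls not above all other 6 libraries. These are described below as knockdown alone apart. Their empty controls could overlap the scrambled controls or lie wholly above them. For 238 (14.5%) the scrambled controls alone stood apart, above the other 6 libraries, and for 123 (7.47%) both held, so that scrambled, empty and knockdown libraries formed separate levels. In 471 the empty controls reached into both groups, and in 272 the knockdown and scrambled libraries themselves overlapped. Rises were placed differently: 605 of the 3435 (17.6%) had knockdown apart and 996 (29.0%) had the scrambled controls alone apart, below the other 6. Another 164 formed separate levels, 1052 had empty controls that reached both groups and 618 overlapped. By the non-overlap of knockdown and scrambled libraries alone, without a test, 3401 genes lay above (30.3%) and 1691 below (15.1%). The empty controls were deposited in another table, so this placing is a description, and construct, experiment and batch cannot be told apart in it.

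**Figure D1:**
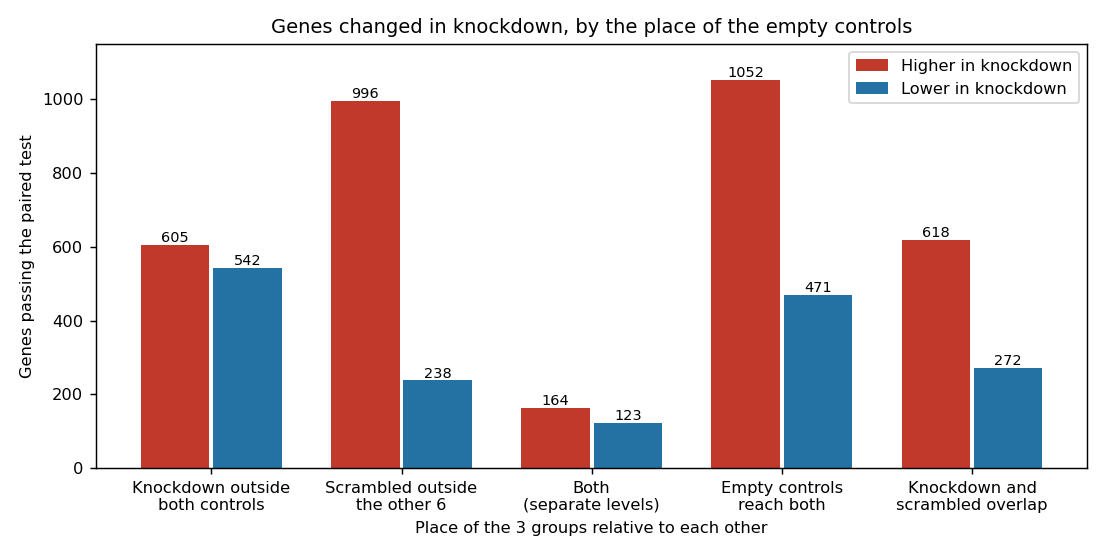
Number of genes higher (red) and lower (blue) in knockdown by the paired test, on the vertical axis, by the place of the empty controls on the horizontal axis. Rises had more genes with the scrambled controls alone apart (996) than with knockdown alone apart (605), and falls the reverse (238 and 542).

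Among the falls in which knockdown alone stood apart were secreted and lysosomal proteins, a surface receptor, parts of the cytoskeleton and a regulator of G protein signalling. The 8 largest, outside known targets and genes singled out in earlier results, are given by library, always in the order 1 to 3, with GENCODE M21 positions on mm10. Wfdc17 (chr11:83703991-83706268), a small secreted protein with a whey acidic protein domain, stood at 63.1, 43.4 and 51.9 FPKM in scrambled controls, 22.1, 12.2 and 21.2 in knockdown and 24.7, 48.2 and 27.4 in empty controls. It changed by -1.49 ± 0.10 (limma adjusted p = 0.00352), and no control library came down to knockdown, although empty controls 1 and 3 lay below the scrambled controls and empty control 2 among them. Ctsk (chr3:95499256-95509362), which encodes the collagen-degrading protease cathepsin K, stood at 852.7, 896.7 and 777.8 FPKM in scrambled controls, 490.8, 448.6 and 357.5 in knockdown and 1107, 575.1 and 695.7 in empty controls. All knockdown libraries were below all 6 controls, with a change of -0.97 ± 0.07 (limma adjusted p = 0.00366). Procr (chr2:155751117-155755471), the receptor of protein C, stood at 625.8, 456.6 and 299.1 FPKM in scrambled controls, 196.7, 197.2 and 172.5 in knockdown and 327.9, 320.8 and 275.8 in empty controls. Its scrambled controls spread widely, the change was -1.22 ± 0.17 (limma adjusted p = 0.00676), and without pair 2 the adjusted p was 0.0505. Gpr137b (chr13:13357620-13394014), a membrane protein of lysosomes, stood at 106.3, 99.3 and 101.01 FPKM in scrambled controls, 56.98, 51.96 and 54.4 in knockdown and 91.96, 120.5 and 79.5 in empty controls. Here the groups were tight and the change was -0.90 ± 0.04 (limma adjusted p = 0.00324).

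Myo1f (chr17:33555707-33607764), a class I myosin of leukocytes that works at the cell cortex, stood at 42.2, 52.5 and 48.9 FPKM in scrambled controls, 23.2, 20.2 and 20.8 in knockdown and 41.1, 42.9 and 40.7 in empty controls. Both control groups were near each other and knockdown lay well below them, at -1.12 ± 0.10 (limma adjusted p = 0.00413). Ctnna1 (chr18:35118859-35254779), alpha-catenin, which ties cadherins to actin, stood at 42.8, 49.5 and 48.6 FPKM in scrambled controls, 24.7, 23.6 and 26.2 in knockdown and 44.8, 40.7 and 47.7 in empty controls. The control groups overlapped and knockdown was apart, at -0.89 ± 0.06 (limma adjusted p = 0.00366). Acox3 (chr5:35583040-35615352), a peroxisomal oxidase of branched fatty acids, stood at 16.3, 14.2 and 16.7 FPKM in scrambled controls, 8.96, 6.06 and 8.17 in knockdown and 12.3, 18.99 and 12.04 in empty controls. No control library came down to the knockdown libraries, and the change was -0.95 ± 0.07 (limma adjusted p = 0.00366). Rgs1 (chr1:144242296-144249242), which speeds GTP hydrolysis by G protein alpha subunits and so dampens chemokine receptors, stood at 480.4, 310.7 and 305.03 FPKM in scrambled controls, 200.9, 201.3 and 175.5 in knockdown and 223.7, 530.6 and 296.4 in empty controls. Scrambled control 1 and empty control 2 were far above their groups, and the change was -0.89 ± 0.13 (limma adjusted p = 0.00731).

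The 8 largest rises with knockdown alone apart were at 98.8 FPKM or less in every scrambled control. Serpinb1a (chr13:32842092-32851185), an intracellular inhibitor of neutrophil-type serine proteases with close paralogs beside it, stood at 98.8, 66.2 and 86.9 FPKM in scrambled controls, 196.8, 167.9 and 166.1 in knockdown and 47.8, 69.6 and 84.2 in empty controls. It was the most abundant of the 8 and changed by 1.08 ± 0.09 (limma adjusted p = 0.00366). Hmgb2 (chr8:57511907-57515999), a DNA-bending chromatin protein of dividing cells, stood at 22.7, 29.8 and 36.6 FPKM in scrambled controls, 53.6, 56.3 and 56.1 in knockdown and 44.4, 30.3 and 43.2 in empty controls. Knockdown libraries were close together and above all 6 controls, by 0.90 ± 0.12 (limma adjusted p = 0.00631). Tmem176a (chr6:48840919-48847071), a membrane protein of antigen-presenting cells, stood at 12.8, 12.7 and 18.1 FPKM in scrambled controls, 24.4, 27.6 and 31.5 in knockdown and 7.24, 12.8 and 15.3 in empty controls. Its change was 0.90 ± 0.07 (limma adjusted p = 0.00366), with the control groups overlapping. Akap1 (chr11:88830792-88864586), which anchors protein kinase A to mitochondria, stood at 10.2, 13.5 and 12.9 FPKM in scrambled controls, 20.8, 23.6 and 23.4 in knockdown and 16.5, 11.8 and 17.7 in empty controls. The groups of controls overlapped below knockdown, and the change was 0.85 ± 0.05 (limma adjusted p = 0.00350).

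Dpy19l1 (chr9:24411776-24503140), a C-mannosyltransferase of the endoplasmic reticulum, stood at 9.97, 11.3 and 11.1 FPKM in scrambled controls, 19.2, 20.5 and 20.3 in knockdown and 14.96, 10.2 and 14.8 in empty controls. Knockdown again lay above every control, by 0.84 ± 0.04 (limma adjusted p = 0.00324). Rbp4 (chr19:38116629-38125281), the carrier of retinol in plasma, stood at 3.26, 2.67 and 3.73 FPKM in scrambled controls, 8.47, 5.78 and 6.41 in knockdown and 2.90, 2.16 and 2.94 in empty controls. It changed by 0.90 ± 0.10 (limma adjusted p = 0.00499) from a low level. Dmpk (chr7:19083849-19093821), the myotonic dystrophy protein kinase, stood at 2.14, 1.59 and 1.65 FPKM in scrambled controls, 7.91, 3.51 and 3.70 in knockdown and 2.13, 0.682 and 2.90 in empty controls. Knockdown 1 was far above the other knockdown libraries, and the change was 1.04 ± 0.15 (limma adjusted p = 0.00770). The eighth, Tspan32, is a tetraspanin, and its empty controls reached both groups once the 9 libraries were scaled by the median of ratios.

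**Figure D2:**
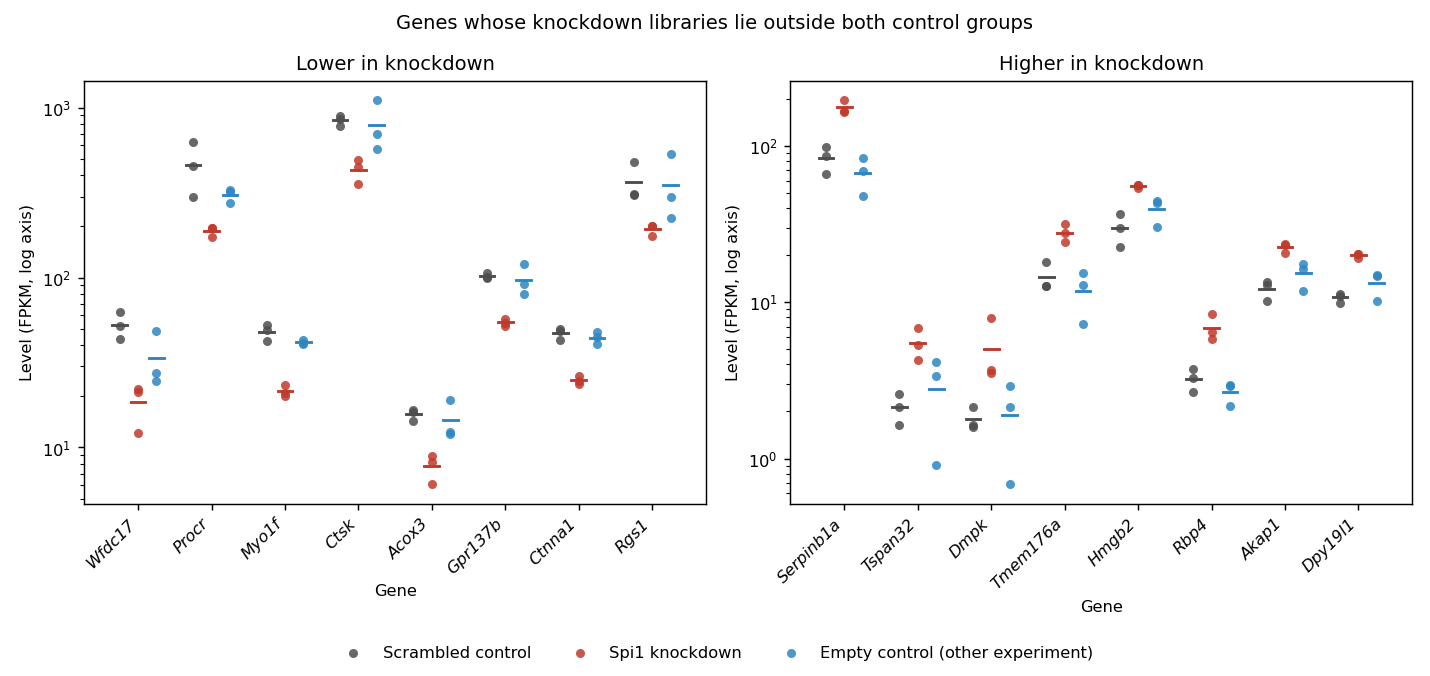
Level in FPKM (log axis) of the 8 largest falls (left) and 8 largest rises (right) in which knockdown alone stood apart, 1 point per library and a bar at the mean of 3, in scrambled control (grey), Spi1 knockdown (red) and empty control (blue). Red points lie outside the range of all grey and blue points of the same gene.

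Where the scrambled controls alone stood apart, the genes named here had knockdown and empty controls with overlapping ranges. The largest falls of this kind were in a neutrophil chemokine, a stefin, an adaptor, a glycosyltransferase and a protease. Cxcl2, which draws neutrophils, stood at 62.3, 75.2 and 63.5 FPKM in scrambled controls, 19.9, 30.2 and 29.2 in knockdown and 29.4, 25.3 and 26.9 in empty controls. Scrambled controls were high and the other 6 libraries low, with a change of -1.33 ± 0.10 from scrambled to knockdown (limma adjusted p = 0.00366). Stfa3, a stefin A cysteine protease inhibitor in a cluster of near copies among which reads may be split, stood at 7.72, 8.79 and 6.47, 2.56, 1.55 and 3.30 and 1.09, 1.52 and 4.01 FPKM in the same order of groups. Its change was -1.34 ± 0.22 (limma adjusted p = 0.00943). Scimp, a transmembrane adaptor of Toll-like receptor signalling, changed by -1.04 ± 0.04, from 29.1 to 13.6 FPKM, with 15.2 in the empty controls. St3gal6, a sialyltransferase whose exons share 25.97% of their bases with a gene on the opposite strand, changed by -0.98 ± 0.06, from 9.20 to 4.21 FPKM, with 6.41 in the empty controls. Prss46, a serine protease, changed by -0.93 ± 0.08, from 6.64 to 3.09 FPKM, with 4.12 in the empty controls. In these 5 genes no empty control reached the scrambled controls, and for St3gal6 and Prss46 the knockdown mean was also below the empty mean, at -0.49 and -0.35 on the log2 scale.

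Among rises with scrambled controls alone apart, the largest outside known targets and genes singled out in earlier results (Uchl3 is one of these) were in 2 spindle genes, a DNA helicase, a gene with a claudin symbol and a small nucleolar RNA. Hmmr, a spindle-associated hyaluronan receptor, stood at 11.7, 11.7 and 17.1 FPKM in scrambled controls, 33.3, 26.9 and 29.01 in knockdown and 20.3, 23.6 and 31.7 in empty controls. The change was 1.10 ± 0.14 (limma adjusted p = 0.00585), and the empty controls overlapped knockdown. Kif20a, a kinesin of the central spindle whose exons share 29.3% of their bases with a gene on the opposite strand, changed by 1.05 ± 0.13, from 10.8 to 23.1 FPKM, with 20.4 in the empty controls. Pif1, a DNA helicase, changed by 1.05 ± 0.16, from 2.97 to 7.11 FPKM, with 7.07 in the empty controls, and its adjusted p was 0.0531 in limma without pair 2. Cldn25, listed under the symbol of a claudin, changed by 1.10 ± 0.07, from 6.06 to 14.2 FPKM, with 13.2 in the empty controls, with tight groups. Rnu73b, a small nucleolar RNA of 71 bases (chr3:86140618-86140688), changed by 1.11 ± 0.19, from 5.24 to 12.05 FPKM, with 10.9 in the empty controls; reads of 100 bases cannot come from it whole, so its value is uncertain, and after scaling the 9 libraries by the median of ratios its empty controls reached both groups.

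Separate levels, with empty controls between scrambled and knockdown, held for the remaining genes. Ms4a7, a four-span membrane protein of macrophages, stood at 12.1, 8.82 and 8.17 FPKM in scrambled controls, 4.43, 2.86 and 3.37 in knockdown and 7.49, 4.95 and 4.74 in empty controls. The change was -1.23 ± 0.07 (limma adjusted p = 0.00324). Ifitm6, an interferon-inducible membrane protein, fell from 186.2 to 82.5 FPKM, with 127.6 in the empty controls (-1.18 ± 0.07). Msrb1, a selenoprotein that repairs oxidised methionine, fell from 87.7 to 40.2 FPKM, with 72.8 in the empty controls (-1.11 ± 0.07). Rises of this kind included Cks2, a subunit of cyclin-dependent kinases, at 15.4, 17.1 and 16.7 FPKM in scrambled controls, 35.2, 35.8 and 30.8 in knockdown and 25.4, 21.9 and 27.6 in empty controls. Its change was 1.004 ± 0.07 (limma adjusted p = 0.00365). Npepl1, an aminopeptidase-like protein, rose from 25.2 to 47.6 FPKM, with 42.2 in the empty controls (0.89 ± 0.04), and Depdc1a, a mitotic protein, from 2.52 to 5.62 FPKM, with 4.33 in the empty controls (0.93 ± 0.12). Without pair 2 the limma adjusted p of Depdc1a was 0.0505.

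**Figure D3:**
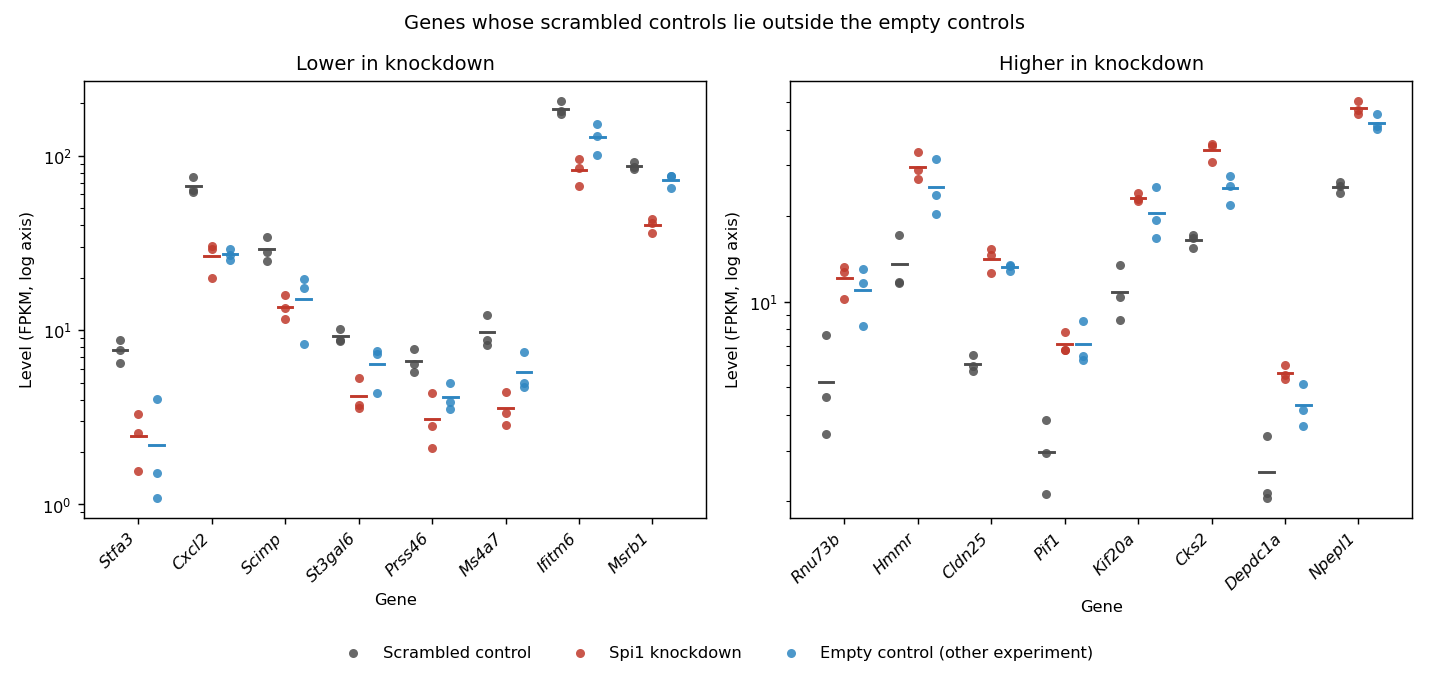
Level in FPKM (log axis) of genes in which the scrambled controls (grey) lay apart from the empty controls (blue), 1 point per library and a bar at the mean of 3, with Spi1 knockdown in red. From Stfa3 to Prss46 and from Rnu73b to Kif20a red and blue ranges overlap; in the last 3 genes of each panel all groups lie apart.

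Tetraspanins, membrane proteins that gather receptors and integrins into patches, had 40% of members lower and 26.7% higher. Over all genes these shares were 14.7% and 30.6%. Of 15 tested, 6 fell and 4 rose (6 and 1 also without the block, 2 and 1 without pair 2, 6 and 2 after rescaling). Knockdown alone was apart in 5 of these falls, beside 32.9% of all genes lower in knockdown. Cd82, which restrains cell movement and growth factor receptors, stood at 47.8, 51.8 and 50.5 FPKM in scrambled controls, 34.1, 29.8 and 31.5 in knockdown and 42.8, 50.6 and 46.1 in empty controls. Cd53, a tetraspanin of leukocytes, stood at 218.8, 194.8 and 190.3, 155.8, 154.2 and 146.96 and 175.4, 223.9 and 179.1 FPKM in the same order of groups. Tspan14, which guides the protease ADAM10 to the surface, stood at 17.8, 17.5 and 17.7, 14.3, 15.2 and 15.1 and 19.2, 16.7 and 16.7 FPKM. In all 3 genes knockdown lay below every control, and the changes were -0.64 ± 0.07, -0.40 ± 0.05 and -0.24 ± 0.04 (limma adjusted p = 0.00467, 0.00578 and 0.0138). Tspan32 went the other way, from 2.13, 1.65 and 2.60 FPKM in scrambled controls to 6.84, 4.29 and 5.32 in knockdown, with 0.907, 4.15 and 3.37 in empty controls. It changed by 1.05 ± 0.10 (limma adjusted p = 0.00448), the only 1 of the 4 rises also called without the block. The abundant Cd9 and Cd63 did not pass the test, at 482.6 and 481.7 FPKM and at 426.5 and 424.4 FPKM in scrambled control and knockdown. Without pair 2, limma adjusted p missed the threshold for Tspan14 (0.0719). For Tspan14 it was 0.0537 without pair 3.

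Cd82, Cd53 and Tspan14 are shown by sequence because they fell together and each has a RefSeq promoter window (250 bases before to 50 after a start, GRCm38.p6) with the letters GAGGAAGT, a core often bound by PU.1. Cd72, an inhibitory receptor of B cells and macrophages with the largest fall among genes with a single window and these letters but no near copy, is added. All 4 are among 21 genes picked, for these letters in a window, from the 442 falls called in both fits with knockdown alone apart. Their choice, and that of the letters, was made after their values were seen. That falls and letters occur together in them was therefore fixed by the choice. The stretches run 5′ to 3′ on the strand of the gene, which is the minus strand in all 4, and capitals mark the letters or their reverse complement. They lie at chr2:93461852-93462101 (1 of 4 windows of Cd82), chr3:106790136-106790299, chr14:40948208-40948359 (1 of 2 windows of Tspan14) and chr4:43454627-43454776.
Cd82: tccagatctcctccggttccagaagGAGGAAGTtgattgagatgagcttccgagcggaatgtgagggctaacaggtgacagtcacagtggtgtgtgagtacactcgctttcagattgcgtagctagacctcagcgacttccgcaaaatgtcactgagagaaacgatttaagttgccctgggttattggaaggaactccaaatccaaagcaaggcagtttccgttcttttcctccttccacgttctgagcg
Cd53: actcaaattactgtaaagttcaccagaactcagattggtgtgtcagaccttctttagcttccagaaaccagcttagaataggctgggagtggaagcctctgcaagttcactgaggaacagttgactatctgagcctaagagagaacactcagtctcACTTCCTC
Tspan14: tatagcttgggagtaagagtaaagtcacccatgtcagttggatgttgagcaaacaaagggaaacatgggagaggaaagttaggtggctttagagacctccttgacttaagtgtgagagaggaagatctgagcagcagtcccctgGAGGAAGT
Cd72: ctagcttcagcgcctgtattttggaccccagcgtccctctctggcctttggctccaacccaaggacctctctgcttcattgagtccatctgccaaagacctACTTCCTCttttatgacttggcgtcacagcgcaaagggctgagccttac

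Counted from the RefSeq start that defines each window, the letters begin at base -225 in Cd82, -6 in Tspan14, -49 in Cd72 and 7 in Cd53. In Cd53 and Cd72 they lie on the opposite strand. That start lies within 2 bases of the GENCODE gene start in Cd53 and Cd72, but 1.29 kb inside the gene in Cd82 and 18.6 kb inside it in Tspan14. Counted by window and not by gene, 1052 of all 32851 promoter windows of the table (3.20%) hold these letters on either strand. They were not in any of the 29 windows found for 23 of the genes named above by the place of the empty controls, which says only that these letters are not in those windows. Windows on chr18, where Ctnna1 and Kif20a lie, were left out of that search. Cd72 stood at 30.5, 40.02 and 37.96 FPKM in scrambled controls, 15.998, 20.8 and 22.9 in knockdown and 34.3, 25.4 and 28.6 in empty controls. All knockdown libraries were below all controls, at -0.84 ± 0.06 (limma adjusted p = 0.00366). Exons of Cd72 share 41.6% of their bases with Tesk1 on the opposite strand, and the library kit does not mark strand, so some of its reads could belong there. Promoter windows were matched for 8697 of the genes tested (77.6%), too few for a comparison of sets, and none was made.

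The pathways that follow are described by how many of their tested members passed the paired test, beside 30.6% higher and 14.7% lower and a median of 0.07 over all genes. Counts in brackets give the members that also passed without the block, those that passed without pair 2, and those that passed after median-of-ratios rescaling. Over all genes, 1948 higher and 992 lower of 11214 passed both with and without the block. Without pair 2 these were 796 and 472 of 11232, and after rescaling 2256 and 2445 of 11209. Bracketed counts are read beside these and not beside 30.6% and 14.7%. Placings within a list are read beside those of all paired calls. Knockdown alone was apart in 32.9% of all falls and 17.6% of all rises, and scrambled controls alone in 14.5% and 29.0%. Empty controls reached both groups in 28.6% and 30.6%, and knockdown and scrambled libraries overlapped in 16.5% and 18.0%. Single members are given by their mean level in scrambled controls and knockdown, each of 3 libraries, then in the empty controls, and by their log2 change with its standard error. Members written as having risen or fallen had limma adjusted p from 0.00324 to 0.0234.

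Signalling proteins beneath the cell surface had more members lower than higher. Of 29 protein tyrosine phosphatases and the adaptors that work beside them, 13 fell and 2 rose (11 and 1 also without the block, 8 and 1 without pair 2, 18 and 1 after rescaling), with a median of -0.16. Falls thus made up 44.8%, and 5 of the 13 had knockdown alone apart, beside 32.9% of all falls. Ptpn12, a phosphatase of adhesion and cytoskeletal adaptors, fell from 33.4 to 21.4 FPKM, with 32.3 in the empty controls (-0.62 ± 0.04). Skap2, an adaptor between Src kinases, integrins and actin, fell from 93.5 to 60.1 FPKM, with 76.8 in the empty controls (-0.63 ± 0.05). Ptpro, a receptor-type phosphatase, fell from 4.47 to 2.41 FPKM, with 3.21 in the empty controls (-0.69 ± 0.05). Kinases and phosphatases of phosphoinositides, the lipids that recruit many of these proteins, showed less: of 29, 7 fell and 3 rose (5 and 2 also without the block, 3 and 0 without pair 2, 13 and 1 after rescaling), with a median of -0.08. Pik3ap1, an adaptor that brings PI 3-kinase to receptors, was the most abundant of those named and fell from 369.5 to 215.9 FPKM, with 302.8 in the empty controls (-0.77 ± 0.05). Pik3cb, a catalytic subunit, fell from 46.1 to 32.4 FPKM, with 44.4 in the empty controls (-0.49 ± 0.04), and Pik3r6, a regulatory subunit of the gamma isoform, from 6.39 to 4.14 FPKM, with 5.60 in the empty controls (-0.52 ± 0.07).

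G protein regulators, the family of Rgs1, had members of both directions. Of 25 RGS proteins, G protein subunits and arrestins, 9 fell and 3 rose (6 and 1 also without the block, 3 and 1 without pair 2, 10 and 1 after rescaling), with a median of -0.03; 6 of the falls had knockdown alone apart. Arrb2, a beta-arrestin that ends receptor signalling, fell from 84.7 to 61.3 FPKM, with 86.1 in the empty controls (-0.47 ± 0.06). Rgs18, a relative of Rgs1, fell from 4.50 to 2.67 FPKM, with 3.54 in the empty controls (-0.58 ± 0.07). Gng12, a G protein gamma subunit, rose from 10.2 to 14.7 FPKM, with 14.4 in the empty controls (0.49 ± 0.04), to the level of the empty controls. Of 27 regulators of RAS and MAP kinases, 5 fell and 6 rose (3 and 4 also without the block, 2 and 2 without pair 2, 7 and 4 after rescaling). Rasgrp3, an activator of RAS, rose from 52.1 to 76.1 FPKM, with 58.7 in the empty controls (0.54 ± 0.06), and Rasa4, a calcium-driven inhibitor of RAS, fell from 49.3 to 32.4 FPKM, with 41.5 in the empty controls (-0.59 ± 0.09), both with knockdown alone apart.

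Receptors for cytokines of the JAK-STAT kind and the SOCS proteins that limit them had more falls than rises. Of 26, 9 fell and 2 rose (6 and 2 also without the block, 4 and 0 without pair 2, 11 and 2 after rescaling), with a median of -0.05. Il10ra, the ligand-binding chain for interleukin-10, was at 6.58, 4.86 and 5.28 FPKM in scrambled controls, 2.84, 1.90 and 2.32 in knockdown and 3.72, 4.44 and 3.31 in empty controls. The 3 groups formed separate levels, and the change was -0.97 ± 0.04 (limma adjusted p = 0.00324). Il13ra1, a chain of the receptor for interleukins 4 and 13, fell from 17.2 to 10.9 FPKM, with 11.3 in the empty controls (-0.62 ± 0.05), down to the empty controls. Il7r fell from 29.5 to 21.8 FPKM, with 24.1 in the empty controls (-0.42 ± 0.06). No fall in this list had knockdown alone apart, and 4 had the scrambled controls alone apart. Of 12 semaphorins, plexins and ephrins, guidance cues and receptors that immune cells also use in contact with each other, 7 fell and 0 rose (4 and 0 also without the block, 2 and 0 without pair 2, 7 and 0 after rescaling), with a median of -0.17. Sema4d fell from 101.9 to 79.6 FPKM, with 94.8 in the empty controls (-0.35 ± 0.05) with knockdown alone apart, Sema4a from 41.04 to 26.6 FPKM, with 31.6 in the empty controls (-0.61 ± 0.07), and the receptor Plxna1 from 127.4 to 96.5 FPKM, with 107.7 in the empty controls (-0.39 ± 0.05). Limma adjusted p without pair 2 was over the threshold for Sema4d (0.0551).

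Genes of sialic acid on the cell surface, both the enzymes that add it and the Siglec receptors that read it, had 41.2% of their members lower, beside 14.7% of all genes. Of 17, 7 fell and 4 rose (6 and 1 also without the block, 4 and 0 without pair 2, 8 and 1 after rescaling), with a median of -0.09. Siglec1, a macrophage Siglec that binds sialylated particles, was at 122.7, 85.7 and 97.6 FPKM in scrambled controls, 71.9, 39.5 and 53.7 in knockdown and 76.3, 82.1 and 75.8 in empty controls. Its 3 groups did not overlap, and the change was -0.90 ± 0.08 (limma adjusted p = 0.00368). Cd33, an inhibitory Siglec, fell from 45.9 to 21.9 FPKM, with 36.6 in the empty controls (-1.06 ± 0.11), and St3gal6 was given above. S100 proteins, annexins and galectins, which bind calcium, membranes or sugars, had falls and no rise by the paired test, though 1 member rose without pair 3 or with limma's trend and 2 rose with limma-voom. Of 21, 11 fell and 0 rose (5 and 0 also without the block, 2 and 0 without pair 2, 14 and 0 after rescaling), with a median of -0.15. Lgals3, galectin-3 of activated macrophages, fell from 735.3 to 576.8 FPKM, with 610.6 in the empty controls (-0.35 ± 0.04), Lgals8 from 61.1 to 45.3 FPKM, with 52.7 in the empty controls (-0.42 ± 0.04), and Anxa4 from 197.5 to 153.3 FPKM, with 172.4 in the empty controls (-0.37 ± 0.05). In 5 of these falls the scrambled controls alone stood apart and in 1 knockdown alone. Relative to the empty controls, the median of these genes was 0.22 in scrambled and 0.09 in knockdown libraries. Leaving out pair 2 ended the limma calls of Anxa4 (0.0567), with that adjusted p in brackets.

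Ion channels had 46.7% of their members lower. Of 30 potassium, calcium and chloride channels, 14 fell and 2 rose (11 and 0 also without the block, 6 and 0 without pair 2, 19 and 0 after rescaling), with a median of -0.16; 6 falls had knockdown alone apart. Clcn3, a chloride-proton exchanger of endosomes, was at 28.04, 26.4 and 27.1 FPKM in scrambled controls, 19.3, 16.7 and 17.4 in knockdown and 26.5, 24.6 and 25.8 in empty controls. Knockdown lay below all 6 controls, by -0.59 ± 0.05 (limma adjusted p = 0.00366). Trpv2, a cation channel of macrophages, fell from 87.2 to 58.4 FPKM, with 73.9 in the empty controls (-0.57 ± 0.04), and Mcoln2, a cation channel of recycling endosomes, from 63.2 to 39.96 FPKM, with 45.6 in the empty controls (-0.65 ± 0.04). Of 29 carriers of amino acids, nucleosides, glucose and related solutes, 11 fell and 5 rose (9 and 2 also without the block, 2 and 0 without pair 2, 11 and 4 after rescaling), with a median of -0.02. Slc4a7, a sodium bicarbonate carrier, fell from 9.45 to 5.51 FPKM, with 11.5 in the empty controls (-0.69 ± 0.04), and Slc6a6, the taurine carrier, from 69.5 to 51.6 FPKM, with 61.6 in the empty controls (-0.42 ± 0.05), both with knockdown alone apart. Zinc and copper genes had equal counts: of 25, 5 fell and 5 rose (2 and 2 also without the block, 1 and 1 without pair 2, 10 and 3 after rescaling). Each count was 20% of the list, beside 14.7% lower and 30.6% higher of all genes. Slc30a1, the zinc exporter of the plasma membrane, fell from 6.22 to 3.46 FPKM, with 5.56 in the empty controls (-0.70 ± 0.06), while the metallothioneins Mt1 and Mt2, which bind zinc, rose. Mt1 went from 629.4 to 876.5 FPKM, with 716.8 in the empty controls (0.48 ± 0.06), and Mt2, whose exons share 73.5% of their bases with an antisense gene, from 475.4 to 689.2 FPKM, with 560.5 in the empty controls (0.54 ± 0.06). Without pair 2, limma adjusted p missed the threshold for Mt1 (0.0501).

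Lipid genes did not move as a block. Of 31 genes of phospholipid and triglyceride synthesis, 11 fell and 4 rose (4 and 4 also without the block, 1 and 2 without pair 2, 14 and 4 after rescaling), with a median of -0.06. Cept1, which joins choline or ethanolamine to diacylglycerol and whose exons share 24.9% of their bases with other genes, fell from 24.8 to 17.95 FPKM, with 23.04 in the empty controls (-0.45 ± 0.04). The acyltransferases Lpcat4 and Agpat3 rose, from 18.4 to 25.7 FPKM, with 21.99 in the empty controls (0.46 ± 0.05) and from 16.2 to 22.1 FPKM, with 20.97 in the empty controls (0.42 ± 0.05). Of 25 sphingolipid genes, 6 fell and 4 rose (5 and 1 also without the block, 2 and 0 without pair 2, 12 and 1 after rescaling). Ugcg, which makes glucosylceramide, fell from 19.9 to 13.2 FPKM, with 17.4 in the empty controls (-0.55 ± 0.06), Sphk2, a sphingosine kinase, from 24.4 to 16.8 FPKM, with 19.9 in the empty controls (-0.52 ± 0.05), and Sptlc2, a subunit of the first enzyme of the pathway, from 59.6 to 44.6 FPKM, with 47.4 in the empty controls (-0.41 ± 0.05). Exons of Sphk2 share 21.9% of their bases with genes on the opposite strand. Of 25 genes of fatty acid synthesis and activation, 8 rose and 5 fell (6 and 1 also without the block, 3 and 2 without pair 2, 7 and 9 after rescaling). Acsl4, which activates arachidonic acid, fell from 73.3 to 46.1 FPKM, with 61.7 in the empty controls (-0.66 ± 0.05) through 3 separate levels, while Acaca, acetyl-CoA carboxylase, rose from 9.54 to 12.6 FPKM, with 11.8 in the empty controls (0.37 ± 0.04). Of 33 genes of fatty acid oxidation and peroxisomes, 13 rose and 6 fell (7 and 6 also without the block, 3 and 3 without pair 2, 8 and 6 after rescaling), with a median of 0.11. Cpt2, which completes the entry of fatty acids into mitochondria, was at 6.97, 6.06 and 7.22 FPKM in scrambled controls, 12.5, 12.4 and 14.9 in knockdown and 9.53, 12.4 and 11.4 in empty controls. The groups were at separate levels, which scaling the 9 libraries ended, with a change of 0.88 ± 0.05 (limma adjusted p = 0.00324), and Acads, which oxidises short chains, rose from 20.9 to 29.3 FPKM, with 27.9 in the empty controls (0.47 ± 0.04). Acox3, above, went the other way. Limma adjusted p without pair 2 was over the threshold for Sptlc2 (0.0503).

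Of 29 SNARE proteins and their regulators, which fuse vesicles with membranes, 10 fell and 5 rose (5 and 2 also without the block, 2 and 1 without pair 2, 13 and 2 after rescaling), with a median of -0.10. Vamp4, a SNARE of the trans-Golgi, fell from 20.4 to 13.2 FPKM, with 21.5 in the empty controls (-0.60 ± 0.07), and Napa, which helps take used SNAREs apart, from 77.1 to 57.7 FPKM, with 71.1 in the empty controls (-0.41 ± 0.05), both with knockdown alone apart. Vamp3, a SNARE of recycling endosomes, rose from 21.5 to 28.4 FPKM, with 29.1 in the empty controls (0.39 ± 0.05). Of 35 autophagy genes, 8 fell and 1 rose (2 and 1 also without the block, 1 and 1 without pair 2, 15 and 1 after rescaling), with a median of -0.10, and 6 of the falls had empty controls that reached both groups. Atg2a, a lipid carrier of the growing autophagosome, fell from 20.2 to 15.3 FPKM, with 18.2 in the empty controls (-0.38 ± 0.05), and Ulk1, the starting kinase, from 5.15 to 3.91 FPKM, with 5.92 in the empty controls (-0.32 ± 0.04). Atg16l2 rose from 6.21 to 8.96 FPKM, with 10.2 in the empty controls (0.47 ± 0.05). Sorting complexes had equal counts: of 33 genes of ESCRT, retromer and sorting nexins, 5 fell and 5 rose (2 and 3 also without the block, 1 and 1 without pair 2, 11 and 2 after rescaling). Each count was 15.2% of the list, beside 14.7% lower and 30.6% higher of all genes. Snx20, a sorting nexin of leukocytes, fell from 73.2 to 46.5 FPKM, with 57.8 in the empty controls (-0.64 ± 0.05), and Snx27, which returns receptors to the surface, rose from 19.4 to 28.5 FPKM, with 28.2 in the empty controls (0.53 ± 0.05). Leaving out pair 2 ended the limma calls of Atg2a (0.0505), with that adjusted p in brackets. Without the block, limma did not call Ulk1 (0.0560), with its adjusted p in brackets.

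**Figure D4:**
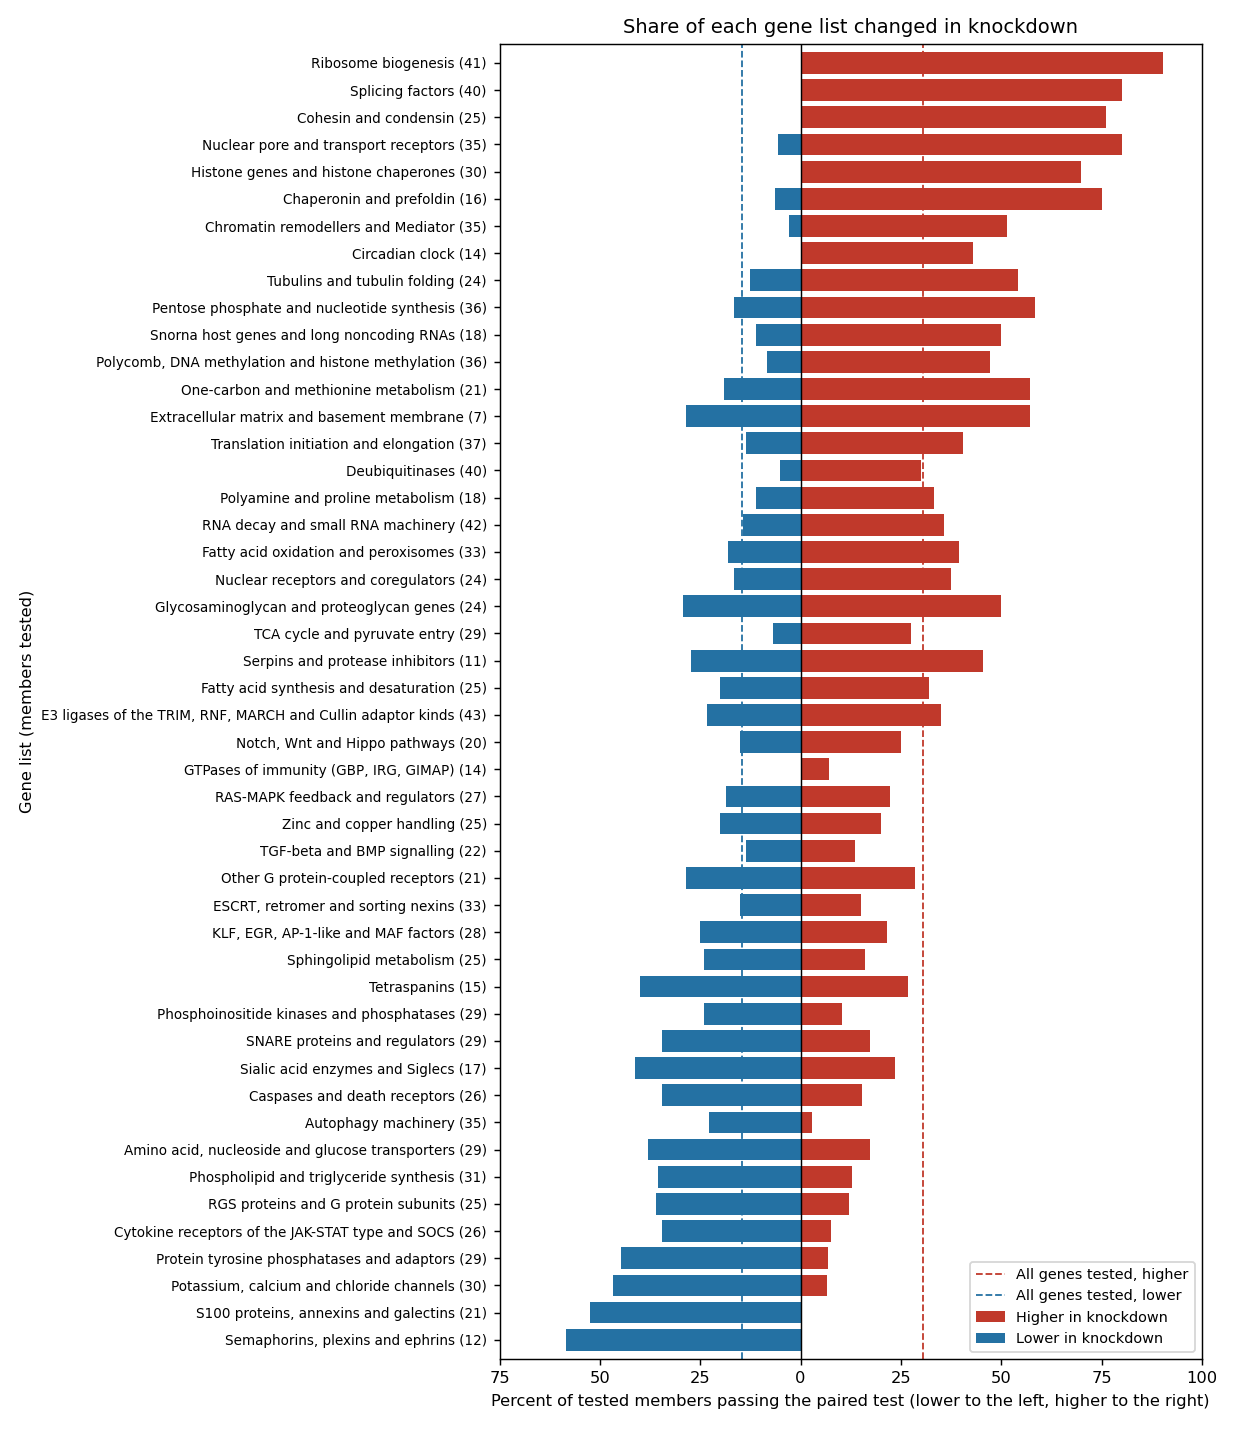
Percent of the tested members of each gene list (number in brackets) higher (red, to the right) and lower (blue, to the left) in knockdown by the paired test, with dashed lines at 30.6% and 14.7% for all genes tested. Ribosome biogenesis, splicing, cohesin and nuclear pore lists lie farthest on the higher side, and semaphorins, S100 proteins and ion channels on the lower.

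Genes that make and handle RNA had many members higher and none lower in the lists of ribosome biogenesis and splicing. Of 41 genes of ribosome biogenesis, which carve ribosomal RNA in the nucleolus, 37 rose and 0 fell (17 and 0 also without the block, 10 and 0 without pair 2, 29 and 0 after rescaling), with a median of 0.28. Only 1 had knockdown alone apart, in 20 the empty controls reached both groups, and in 11 the knockdown and scrambled libraries themselves overlapped. Fbl, the methyltransferase fibrillarin, was at 44.8, 54.1 and 50.1 FPKM in scrambled controls, 62.8, 75.5 and 69.8 in knockdown and 64.98, 52.7 and 67.1 in empty controls. Knockdown and scrambled libraries did not overlap, and the change was 0.47 ± 0.04 (limma adjusted p = 0.00368). Polr1b, a subunit of RNA polymerase I, rose from 14.5 to 20.3 FPKM, with 17.8 in the empty controls (0.46 ± 0.04), and Gar1, of box H/ACA particles, from 15.4 to 20.9 FPKM, with 19.4 in the empty controls (0.42 ± 0.04). Of 40 splicing factors, 32 rose and 0 fell (18 and 0 also without the block, 7 and 0 without pair 2, 25 and 0 after rescaling), with a median of 0.29. Tra2a, a regulator of exon choice, was at 35.3, 43.2 and 37.9 FPKM in scrambled controls, 57.3, 68.6 and 57.7 in knockdown and 47.2, 34.9 and 41.2 in empty controls. It was 1 of 3 splicing rises with knockdown alone apart, and the change was 0.64 ± 0.04 (limma adjusted p = 0.00362). Snrpe, a core protein of spliceosomal particles, rose from 81.3 to 112.5 FPKM, with 95.3 in the empty controls (0.46 ± 0.04).

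In lists of nuclear and chromosome structure the share higher was also above the 30.6% of all genes. It was 80% for nuclear pore genes and 76% for cohesin and condensin genes. Of 35 nuclear pore proteins and transport receptors, 28 rose and 2 fell (22 and 1 also without the block, 9 and 0 without pair 2, 26 and 3 after rescaling), with a median of 0.28, and in 19 the scrambled controls alone were apart. Nup188, of the inner ring, was at 27.3, 31.7 and 30.5 FPKM in scrambled controls, 40.9, 45.3 and 44.2 in knockdown and 43.03, 38.9 and 42.6 in empty controls. Scrambled controls were low and the other 6 libraries overlapped, with a change of 0.53 ± 0.04 (limma adjusted p = 0.00366). Nup210, a pore membrane protein, rose from 14.5 to 19.9 FPKM, with 18.4 in the empty controls (0.44 ± 0.04), and Xpo5, which exports microRNA precursors, from 14.5 to 20.01 FPKM, with 19.3 in the empty controls (0.44 ± 0.04). Of 25 genes of cohesin and condensin, the rings that hold and fold chromosomes, 19 rose and 0 fell (18 and 0 also without the block, 10 and 0 without pair 2, 18 and 1 after rescaling), with a median of 0.47. Ncaph, a condensin subunit, was at 14.5, 14.4 and 18.7 FPKM in scrambled controls, 28.1, 25.3 and 28.2 in knockdown and 22.04, 26.2 and 30.001 in empty controls. The empty controls again lay with knockdown, and the change was 0.75 ± 0.07 (limma adjusted p = 0.00448). Rad21, the cohesin subunit that closes the ring, rose from 41.001 to 59.7 FPKM, with 51.9 in the empty controls (0.54 ± 0.05), and Esco2, which acetylates cohesin, from 3.33 to 5.44 FPKM, with 5.08 in the empty controls (0.57 ± 0.05).

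Of 30 histone genes and histone chaperones, 21 rose and 0 fell (11 and 0 also without the block, 4 and 0 without pair 2, 16 and 0 after rescaling), with a median of 0.32. In 7 of the rises the knockdown and scrambled libraries overlapped. Many histone genes are near copies of each other and most of their messages lack a polyA tail, so the members named are chaperones. Nasp, which carries linker and H3 histones, rose from 23.5 to 37.3 FPKM, with 33.2 in the empty controls (0.66 ± 0.06), Anp32e, which removes H2A.Z, from 35.99 to 51.8 FPKM, with 48.3 in the empty controls (0.52 ± 0.04), and Ssrp1, a subunit of FACT, from 70.5 to 91.2 FPKM, with 88.1 in the empty controls (0.37 ± 0.04). Of 35 chromatin remodellers and Mediator subunits, 18 rose and 1 fell (12 and 0 also without the block, 2 and 0 without pair 2, 13 and 1 after rescaling), with a median of 0.18. Med14, the Mediator backbone, rose from 2.14 to 4.01 FPKM, with 3.51 in the empty controls (0.67 ± 0.04), and Mta1, of the NuRD complex, from 38.2 to 53.9 FPKM, with 51.2 in the empty controls (0.49 ± 0.04). Of 36 genes of polycomb, DNA methylation and histone methylation, 17 rose and 3 fell (12 and 2 also without the block, 6 and 1 without pair 2, 13 and 3 after rescaling), with a median of 0.15. Kdm1a, a histone demethylase, rose from 26.2 to 36.4 FPKM, with 29.97 in the empty controls (0.46 ± 0.04) with knockdown alone apart, and Jarid2, a partner of polycomb complex 2, fell from 8.04 to 4.89 FPKM, with 6.98 in the empty controls (-0.62 ± 0.06). Of 24 tubulins and tubulin folding factors, 13 rose and 3 fell (10 and 2 also without the block, 0 and 0 without pair 2, 10 and 3 after rescaling), so that no call in this list stood without pair 2. Tuba1b, an alpha-tubulin with near copies, rose from 224.2 to 345.9 FPKM, with 309.2 in the empty controls (0.63 ± 0.10), and Tubb6 from 159.2 to 230.5 FPKM, with 202.7 in the empty controls (0.53 ± 0.07). Exons of Tuba1b share 27.4% of their bases with other genes. Of 16 subunits of the chaperonin and prefoldin, which fold tubulin and actin, 12 rose and 1 fell (6 and 1 also without the block, 2 and 0 without pair 2, 8 and 1 after rescaling), with a median of 0.24. Pfdn4 rose from 14.1 to 23.5 FPKM, with 18.1 in the empty controls (0.70 ± 0.04), Pfdn2 from 49.8 to 65.01 FPKM, with 57.2 in the empty controls (0.38 ± 0.04), and Tcp1 from 138.2 to 177.3 FPKM, with 153.9 in the empty controls (0.36 ± 0.04), all at 3 separate levels, those of Tcp1 not after scaling the 9 libraries. Exons of Pfdn4 and Pfdn2 share 28.7% and 27.6% of their bases with other genes. Without pair 2, limma adjusted p missed the threshold for Tcp1 (0.0510), Tuba1b (0.0548) and Tubb6 (0.0509).

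Genes that supply building blocks for nucleic acids had larger shares higher than all genes tested. These were 58.3% for nucleotide genes and 57.1% for folate and methionine genes, beside 30.6%. Of 36 genes of the pentose phosphate route and nucleotide synthesis, 21 rose and 6 fell (14 and 3 also without the block, 11 and 2 without pair 2, 17 and 6 after rescaling), with a median of 0.22, and in 11 the scrambled controls alone were apart. Prps1, which makes the activated ribose for nucleotides, was at 34.7, 35.4 and 36.6 FPKM in scrambled controls, 53.1, 59.6 and 59.3 in knockdown and 53.3, 54.6 and 59.1 in empty controls. Only the scrambled controls were low, and the change was 0.67 ± 0.05 (limma adjusted p = 0.00366). Ppat, the first enzyme of purine synthesis, rose from 11.9 to 18.4 FPKM, with 15.6 in the empty controls (0.58 ± 0.05), and Cad, which starts pyrimidine synthesis, from 18.03 to 27.3 FPKM, with 24.8 in the empty controls (0.58 ± 0.05). Of 21 genes of folate and methionine metabolism, 12 rose and 4 fell (5 and 2 also without the block, 2 and 2 without pair 2, 6 and 4 after rescaling), with a median of 0.19. Mthfd1, a folate enzyme, rose from 33.1 to 46.1 FPKM, with 41.04 in the empty controls (0.47 ± 0.04), and Ahcy, which clears S-adenosylhomocysteine, from 45.7 to 64.2 FPKM, with 61.3 in the empty controls (0.48 ± 0.05). Of 18 genes of polyamines and proline, 6 rose and 2 fell (4 and 1 also without the block, 1 and 2 without pair 2, 4 and 3 after rescaling). That is 33.3% higher and 11.1% lower, near the 30.6% and 14.7% of all genes. Among the named members, Srm, spermidine synthase, rose from 58.8 to 88.5 FPKM, with 83.5 in the empty controls (0.58 ± 0.04), and Sat1, which acetylates polyamines for export, fell from 334.6 to 221.3 FPKM, with 293.6 in the empty controls (-0.59 ± 0.06). Smox, which oxidises spermine, fell from 59.3 to 38.6 FPKM, with 40.5 in the empty controls (-0.59 ± 0.05). Without the block, limma did not call Smox (0.0668), with its adjusted p in brackets.

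Protein synthesis, RNA decay and ubiquitin lists held members of both directions. Of 37 initiation and elongation factors, 15 rose and 5 fell (8 and 3 also without the block, 1 and 2 without pair 2, 8 and 5 after rescaling), with a median of 0.14. The named falls were regulators of initiation: Eif2b2, a subunit of the exchange factor for eIF2, was at 53.5, 53.8 and 53.2 FPKM in scrambled controls, 32.5, 30.9 and 31.9996 in knockdown and 49.02, 58.4 and 54.5 in empty controls. Knockdown was below all 6 controls, by -0.73 ± 0.04 (limma adjusted p = 0.00324). Eif4ebp2, which blocks cap-binding eIF4E, was at 25.1, 28.7 and 30.1 FPKM in scrambled controls, 16.2, 13.9 and 16.04 in knockdown and 30.9, 22.6 and 27.4 in empty controls. It too lay apart from both control groups, by -0.82 ± 0.08 (limma adjusted p = 0.00457), while Eef1e1, a scaffold of the tRNA synthetase complex, rose from 52.4 to 68.9 FPKM, with 68.6 in the empty controls (0.39 ± 0.04). Of 42 genes of RNA decay and small RNAs, 15 rose and 6 fell (10 and 5 also without the block, 1 and 3 without pair 2, 8 and 9 after rescaling). Ago1, an Argonaute protein, fell from 11.1 to 7.56 FPKM, with 11.1 in the empty controls (-0.50 ± 0.05), and Dcp2, which removes caps, from 11.4 to 7.998 FPKM, with 12.4 in the empty controls (-0.46 ± 0.05), both with knockdown alone apart. Pan2, which trims polyA tails, rose from 3.84 to 5.48 FPKM, with 4.88 in the empty controls (0.42 ± 0.05).

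Of 40 deubiquitinases, 12 rose and 2 fell (7 and 1 also without the block, 3 and 0 without pair 2, 7 and 5 after rescaling). That is 30% higher and 5% lower, beside 30.6% and 14.7% of all genes. Uchl3 had the largest rise among the members named here, at 11.9, 13.7 and 12.2 FPKM in scrambled controls, 35.2, 41.1 and 39.1 in knockdown and 36.8, 38.3 and 39.4 in empty controls. Scrambled controls alone were low, the ranges of knockdown and empty controls overlapped, and the change was 1.54 ± 0.05 (limma adjusted p = 0.00324). Stambp, which cuts K63-linked chains at endosomes, had the same placing and rose from 6.15 to 10.97 FPKM, with 10.3 in the empty controls (0.75 ± 0.07). Of 43 E3 ligases and cullin adaptors, 15 rose and 10 fell (11 and 8 also without the block, 3 and 4 without pair 2, 13 and 13 after rescaling). Peli1, a ligase of Toll-like receptor signalling, fell from 38.2 to 24.1 FPKM, with 30.3 in the empty controls (-0.64 ± 0.05), Rnf149 from 190.7 to 134.2 FPKM, with 140.9 in the empty controls (-0.50 ± 0.05), and Fbxo5, an inhibitor of the anaphase-promoting complex, rose from 9.05 to 14.5 FPKM, with 12.5 in the empty controls (0.62 ± 0.06). Exons of Rnf149 share 24.9% of their bases with another gene on its strand. Of 29 genes of the TCA cycle and pyruvate entry, 8 rose and 2 fell (1 and 2 also without the block, 1 and 1 without pair 2, 3 and 4 after rescaling). Irg1, which makes the macrophage metabolite itaconate, fell from 1204 to 799.4 FPKM, with 904.9 in the empty controls (-0.58 ± 0.08), and Suclg2, a subunit of succinyl-CoA ligase, rose from 13.7 to 19.5 FPKM, with 15.1 in the empty controls (0.48 ± 0.04). Of 28 factors of the KLF, EGR, AP-1 and MAF kinds, 7 fell and 6 rose (5 and 5 also without the block, 4 and 1 without pair 2, 12 and 4 after rescaling). Maff fell from 16.7 to 11.6 FPKM, with 12.9 in the empty controls (-0.49 ± 0.04), Maf, a factor of mature macrophages, from 4.99 to 2.82 FPKM, with 2.83 in the empty controls (-0.66 ± 0.07), and Tfe3, which drives lysosomal genes, from 15.4 to 11.3 FPKM, with 14.5 in the empty controls (-0.41 ± 0.04).

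Beside the empty controls, the scrambled median was the farther in 21 of 28 lists with more rises than falls. Among 16 lists with more falls than rises, it was the farther in 8 and the knockdown median in 8. Medians over members in scrambled controls, relative to the empty controls, were -0.33 for cohesin and condensin, -0.31 for nuclear pore, -0.25 for histone and -0.20 for nucleotide genes. In knockdown the same lists were at 0.06, 0.04, 0.04 and 0.03, next to the empty controls. Splicing factors were at -0.12 in scrambled controls and 0.15 in knockdown, where knockdown was the farther. Tyrosine phosphatases were at 0.08 and -0.12, and semaphorins and plexins at 0.07 and -0.16, with knockdown the farther from the empty controls. Cytokine receptors were at 0.16 and 0.01, ion channels at 0.09 and -0.07, and S100 proteins, annexins and galectins as given above, with scrambled controls the farther. All genes tested were at -0.04 and 0.03. These differences are on the log2(FPKM + 1) scale across tables deposited separately, so they carry no test.

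**Figure D5:**
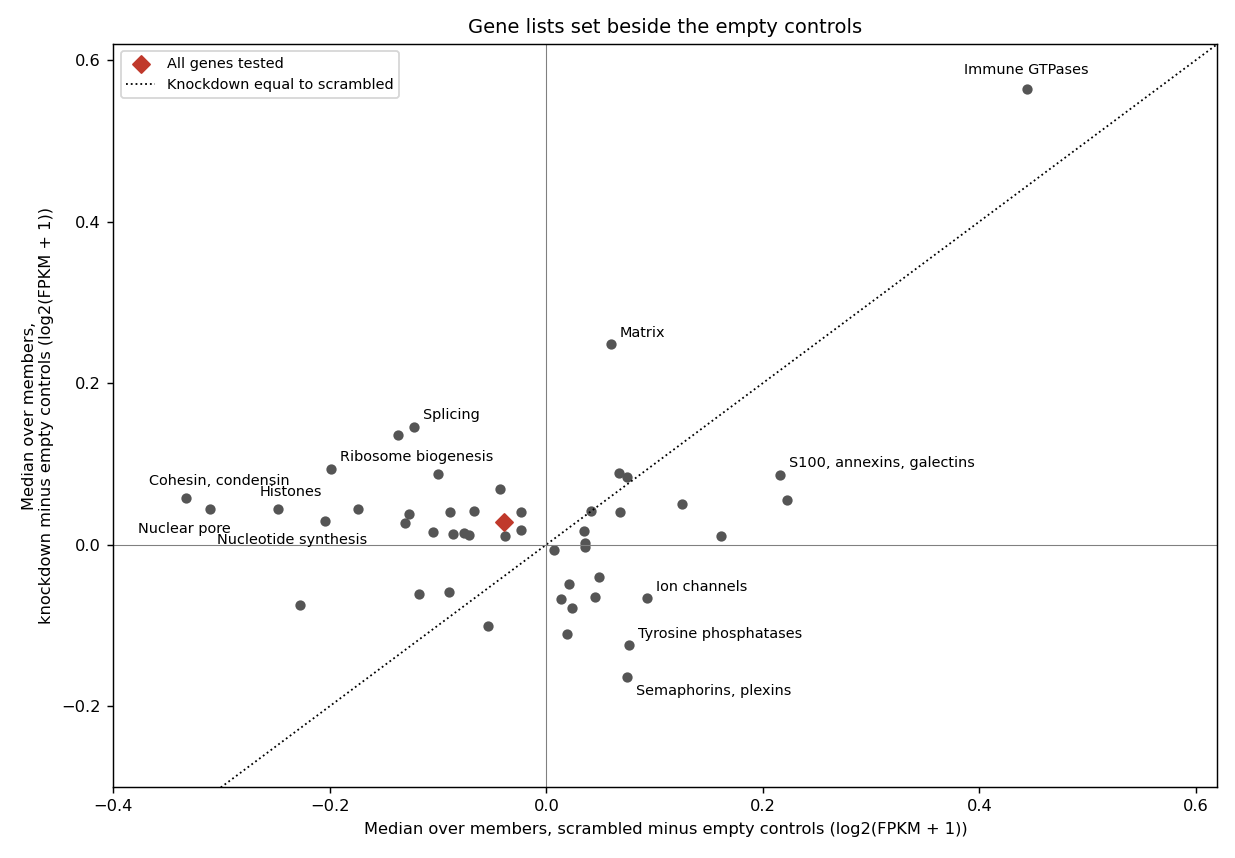
Median over the tested members of each of 48 gene lists, as scrambled minus empty controls (horizontal axis) and knockdown minus empty controls (vertical axis), both in log2(FPKM + 1). Cohesin and nuclear pore lists lie left of 0 and near 0 in height, while semaphorins and tyrosine phosphatases lie below 0; the dotted line marks equal levels in knockdown and scrambled controls.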

How the data were processed

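RNA of BV2 cells was read as single reads of 100 bases from TruSeq v2 libraries on a HiSeq instrument, per the labels' protocols. The authors deposited FPKM per gene symbol in 1 table per experiment; the unit was inferred from the values, which step in whole reads. Named in the submitters' processing notes are STAR 2.5.2a, featureCounts, CASAVA 1.8.2, bcl2fastq, DESeq2 1.14 and mm10. The sources used here do not give the annotation, gene lengths or strand setting. Whole reads were recovered from the deposited FPKM for 17842 of 17842 genes above 0 and served for depth and for limma-voom as an alternative.

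Genes whose mean reached 1 FPKM were tested with limma 3.58.1 (R 4.3.3) on log2(FPKM + 1), which understates changes of low genes, with the replicate number as a block and Benjamini-Hochberg adjustment. The script was tested on simulated data. Samples with the same number in their titles deviated together, with correlations of 0.345 to 0.540 against -0.360 to -0.034 for other numbers; 4 entries with repeated symbols were left out. The labels do not say what a number marks.

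The comparison, its members and all gene lists were chosen with earlier results of these data known. Named were Spi1, the 8 largest rises and falls with knockdown alone apart, 5 each with scrambled controls alone apart and 3 each at separate levels, among genes called with and without the block, at 5 FPKM or more in the higher group and outside a list of known targets and of genes singled out in earlier results, and up to 3 called members of each list with the smallest p. Results of 1 of the 49 lists and of some genes so named are not reported here. Alternatives were a pseudocount of 0.1, no filter, a filter at 5 FPKM, median-of-ratios scaling, limma with trend, left-out pairs or libraries and no block. Positions and exon overlaps came from GENCODE M21, promoter windows from RefSeq (GRCm38.p6). Exon overlaps smaller than those stated were left out of the text.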

Additional observations from a re-analysis of the deposited data

How the results depend on the processing

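Calls depended most on the block and on pair 2. Without the replicate block, limma found 1952 genes higher and 993 lower, against 3435 and 1646 with it; the pairing rests on same-numbered libraries that deviate together. Of the 174 named genes, 168 were still called without the block. Leaving out 1 pair gave 796 to 2800 higher and 472 to 1551 lower, and without the block, leaving out scrambled control 1, 2 or 3 or knockdown 1, 2 or 3 gave 1280, 1331, 1510, 1232, 1112 and 910 higher and 782, 671, 696, 673, 596 and 548 lower. Pair 2 gave the lowest count, or shared it, in all 98 counts of the 49 lists. Of 172 named genes testable without pair 2, 30 lost their call, with limma adjusted p of 0.0501 to 0.129. Median-of-ratios scaling left 2256 higher and 2445 lower and 172 of 173 named calls, the exception being Tgfbr1. The other settings gave 3085 to 3822 higher and 1461 to 1921 lower, and no named gene changed sign in any setting.

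Over the 3435 and 1646 paired calls, scaling the 9 libraries by the median of ratios put 106 rises and 208 falls at separate levels, against 164 and 123, and left 1156 rises and 142 falls with knockdown and scrambled libraries overlapping, against 618 and 272. Of 174 named genes, 152 kept their place under that scaling. Among the calls made without the block, 556 rises and 256 falls had empty controls that reached both groups, against 1052 and 471. The paired fit has 3 pairs and 2 residual degrees of freedom, and depth was 24.4 megareads or more on genes in each of the 6 libraries.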

Other observations

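Lists with few members or few calls are given here as values. Of 21 other G protein-coupled receptors, 6 fell and 6 rose (3 and 4 also without the block, 3 and 3 without pair 2, 7 and 6 after rescaling). Fzd7, a receptor for Wnt ligands, rose from 10.9 to 19.5 FPKM, with 14.8 in the empty controls (0.78 ± 0.07), and Smo, the transducer of Hedgehog signals, from 0.821 to 1.49 FPKM, with 1.22 in the empty controls (0.45 ± 0.05). Of 20 genes of Notch, Wnt and Hippo signalling, 5 rose and 3 fell (3 and 3 also without the block, 2 and 0 without pair 2, 4 and 5 after rescaling). Maml1, a coactivator of Notch, rose from 6.86 to 10.6 FPKM, with 9.52 in the empty controls (0.57 ± 0.05), and Lfng, which adds sugar to Notch, fell from 8.002 to 4.88 FPKM, with 7.66 in the empty controls (-0.63 ± 0.10). Of 22 genes of TGF-beta and BMP signalling, 3 fell and 3 rose (2 and 1 also without the block, 1 and 0 without pair 2, 7 and 0 after rescaling); Smurf2, a ligase that marks the receptors for removal, fell from 5.02 to 3.38 FPKM, with 5.64 in the empty controls (-0.46 ± 0.05). Of 26 caspases, death receptors and their regulators, 9 fell and 4 rose (5 and 3 also without the block, 0 and 0 without pair 2, 10 and 2 after rescaling). Xiap, an inhibitor of caspases, fell from 18.5 to 15.2 FPKM, with 19.3 in the empty controls (-0.27 ± 0.04), and Tnfrsf1a, a receptor for TNF, from 50.6 to 40.6 FPKM, with 44.8 in the empty controls (-0.31 ± 0.05). Of 24 nuclear receptors and coregulators, 9 rose and 4 fell (6 and 3 also without the block, 0 and 0 without pair 2, 4 and 4 after rescaling). Rxra, the shared partner of many nuclear receptors, rose from 28.4 to 34.99 FPKM, with 34.2 in the empty controls (0.29 ± 0.04), and its paralog Rxrb fell from 38.3 to 32.3 FPKM, with 38.7 in the empty controls (-0.24 ± 0.04). Limma adjusted p without pair 2 was over the threshold for Lfng (0.0557), Rxra (0.0622), Rxrb (0.0792), Tnfrsf1a (0.0701) and Xiap (0.0671).

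Of 24 genes of glycosaminoglycans and proteoglycans, 12 rose and 7 fell (8 and 4 also without the block, 2 and 1 without pair 2, 9 and 10 after rescaling). Hs2st1, a sulfotransferase of heparan sulfate, rose from 10.97 to 14.7 FPKM, with 13.3 in the empty controls (0.39 ± 0.04), and Chst3, of chondroitin sulfate, from 0.737 to 1.34 FPKM, with 1.30 in the empty controls (0.43 ± 0.05). Of 7 matrix genes above the filter, 4 rose and 2 fell (2 and 1 also without the block, 0 and 0 without pair 2, 2 and 2 after rescaling); the collagen-modifying enzymes Plod1 and Plod2 rose, from 52.01 to 65.2 FPKM, with 53.4 in the empty controls (0.32 ± 0.05) and from 17.1 to 21.2 FPKM, with 15.3 in the empty controls (0.29 ± 0.04), and P4ha1 fell from 61.1 to 50.04 FPKM, with 59.7 in the empty controls (-0.28 ± 0.05). Of 11 serpins and other protease inhibitors, 5 rose and 3 fell (2 and 2 also without the block, 1 and 2 without pair 2, 3 and 4 after rescaling), among them Serpinb1a and Wfdc17 above. Cstb, which inhibits cysteine cathepsins, fell from 588.1 to 416.9 FPKM, with 533.1 in the empty controls (-0.50 ± 0.04). Of 14 clock genes, 6 rose and 0 fell (4 and 0 also without the block, 2 and 0 without pair 2, 5 and 2 after rescaling). The repressor Nfil3 rose from 9.61 to 12.5 FPKM, with 11.9 in the empty controls (0.35 ± 0.04). Of 18 hosts of small nucleolar RNAs and other long noncoding RNAs, 9 rose and 2 fell (7 and 1 also without the block, 5 and 1 without pair 2, 7 and 3 after rescaling), and 7 of the rises had the scrambled controls alone apart. Snhg5 rose from 12.6 to 20.3 FPKM, with 22.1 in the empty controls (0.64 ± 0.05). Leaving out pair 2 ended the limma calls of P4ha1 (0.0806), Plod1 (0.0695) and Plod2 (0.0673), with that adjusted p in brackets.

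GTPases of immunity, interferon-induced proteins that attack vacuoles of microbes, had few members called in knockdown. Of 14 tested, 1 rose and 0 fell (1 and 0 also without the block, 0 and 0 without pair 2, 0 and 2 after rescaling). Their median change from scrambled control to knockdown was 0.14, beside 0.07 over all genes tested. Relative to the empty controls their median was 0.44 in scrambled and 0.56 in knockdown libraries, so both hairpin groups were above the empty controls, with -0.04 and 0.03 for all genes. No test was made across the separate tables, and hairpin, experiment and batch cannot be told apart.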
